A study of Cuscuta campestris with 9 samples.

Results

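The comparison covered all 156 microRNA loci of the deposited table for the parasitic plant Cuscuta campestris, in haustoria that had formed without a host set against shoot tips. Every locus was a member, with no selection on its values, and 6 of the 9 libraries of the study entered, 3 of each group. The study sequenced small RNA to ask how these microRNAs accumulate when the parasite makes its feeding organs in vitro. The level of a locus is its reads-per-million value (RPM), relative to all mapped reads of a library, which the authors deposited beside the read counts.

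Cuscuta campestris, a dodder, has no roots and lives on the stems and leaves of other plants. It draws water, sugars and nutrients from them through haustoria, organs that grow out of its own stem and push into host tissue. Plant microRNAs are short RNAs cut by a Dicer-like enzyme from a hairpin that folds within 1 longer transcript. Loaded into an Argonaute protein, they direct the cutting or silencing of messenger RNAs with a matching site. In earlier work, microRNAs of this parasite that accumulate in haustoria were found to direct the cutting of messenger RNAs of the host Arabidopsis thaliana. The targets described there included SEOR1, a protein of the phloem, the auxin receptors TIR1, AFB2 and AFB3, and the immune kinase BIK1.

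Both groups came from wild-type plants of 1 isolate, 'Dottie', kept in a greenhouse on beet and Coleus, so the tips belonged to plants that were themselves fed by hosts. Tips were cut at 6 to 8 cm. For the haustoria, the cut tips were laid on 3% agarose under 8 glass slides, lit with far-red light for 2 h and then held in the dark for 4 days with no Arabidopsis leaf present. The shoot tips were frozen at once after cutting. Haustorium formation therefore cannot be told apart from pressure, light, darkness and time after cutting in this comparison. The haustoria libraries were made from stem tissue bearing haustoria, and a small number of cells with a microRNA and a low amount in each cell cannot be told apart in such bulk samples. The labels call the 3 libraries of a group biological replicates without saying what was separate about them, so the p-values measure the spread between these samples.

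Mapped reads numbered 10680833 to 14336549 per library in haustoria without host and 10520587 to 16706210 in shoot tips. The loci spanned 80 to 130 nt (median 89.0) on 75 scaffolds of the assembly Ccam0.32. Their names grouped them into 103 families, 64 loci having a miR number and 92 the prefix IIM, whose meaning neither the labels nor the table give. None of 30 conserved plant microRNA families was among them. With values used for these loci only, the tissue labels were not checked against marker genes. How the authors chose the loci is not given in the sources used here, so a direction that most of them share is not independent evidence. The same sources do not say how reads matching several loci were assigned, which makes values within families of near-identical copies uncertain.

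Reads at the 156 loci made up 4.46%, 6.94% and 5.99% of the mapped reads in the 3 haustoria libraries, against 0.0283%, 0.0249% and 0.0435% in the 3 shoot tip libraries. The mean was 5.80% ± 1.25 in haustoria without host and 0.0322% ± 0.00989 in shoot tips (SD, n = 3 each), a 180-fold difference with no overlap between the groups. An exact two-sided permutation test gave p = 0.1, the smallest that 3 against 3 libraries can give (adjusted p = 0.25 over 5 composition values). The loci without any read numbered 3, 1 and 3 in the haustoria libraries and 63, 54 and 35 in the shoot tip libraries. At 100 RPM or more on average stood 58 loci in haustoria without host and 0 in shoot tips. At 1 RPM or more there were 150 loci in haustoria without host and 43 in shoot tips.

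Locus by locus and relative to mapped reads, microRNAs were higher in haustoria without host nearly throughout the table. Of 142 loci with enough reads to test, edgeR's quasi-likelihood test called 136 higher (95.8% of those tested) and 0 lower (0.0%) at a Benjamini-Hochberg adjusted p under 0.05. No locus was lower at an unadjusted p under 0.05 either, and DESeq2 and limma-voom each called 0 lower. All 142 passed the filter on their haustoria reads and 31 would also have passed on their shoot tip reads alone, so the count over the whole table is not support. Of those 31, 30 were called higher, with a median log2 change of 7.09 and a range of 0.56 to 9.61. Over all 142 loci the median fitted log2 change was 7.69, or 7.39 with the 17 loci that had no shoot tip read set at a lower bound. In 147 of all 156 loci (94.2%), each haustoria library was above each shoot tip library. Scaling the libraries on the loci themselves, by TMM or DESeq2 size factors, centres the changes near 0 by construction and left 36 or 38 loci higher and 30 lower, with medians of 0.56 and 0.54. Of the 136 loci called higher per mapped reads, 54 had a change below 0 under TMM and 53 under DESeq2 size factors.

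**Figure D1:**
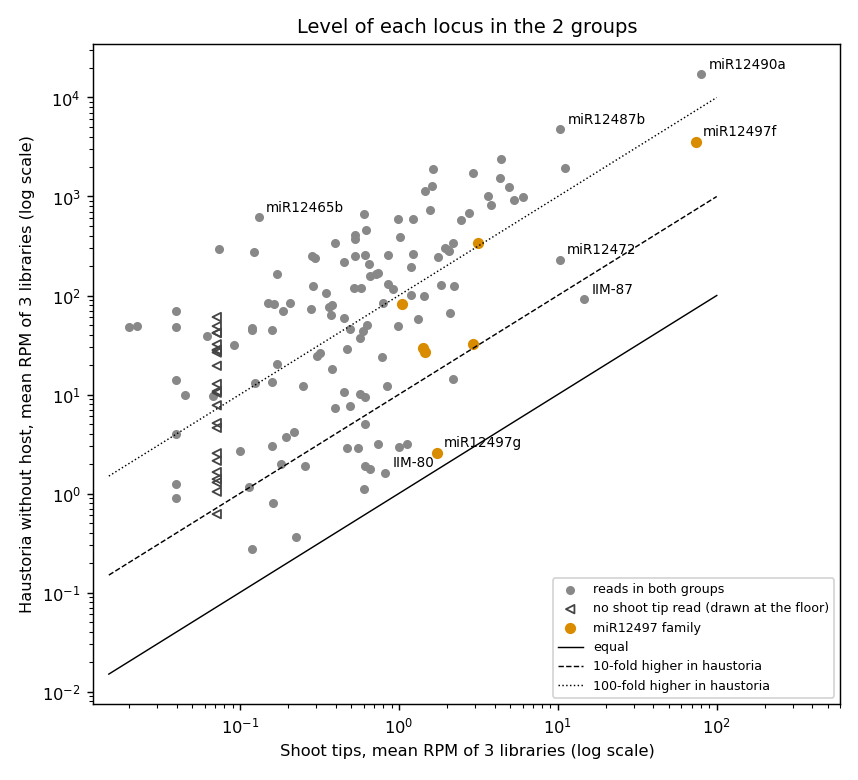
Mean level of each locus in haustoria without host (vertical axis, RPM, log scale) against its mean in shoot tips (horizontal axis, RPM, log scale), 3 libraries per group; open triangles mark the 22 loci with no shoot tip read, drawn at 0.0716 RPM, and the 1 locus with no haustoria read is not drawn. All drawn points lie above the line of equal level; miR12490a is highest in both groups, and miR12497g lies nearest that line.

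The most abundant locus in both groups was miR12490a, on scaffold 59 at bases 1855139 to 1855224. It had 13339, 19461 and 19020.3 RPM in haustoria without host, against 88.2, 55.9 and 96.1 RPM in shoot tips. The haustoria libraries were all far above the shoot tip libraries, by 216-fold on means, with a log2 change of 7.75 ± 0.59 (SE, n = 3 each, edgeR adjusted p = 3.5e-06). Second in haustoria was miR12487b, on scaffold 191 at bases 250372 to 250460, with 3038, 5852 and 5484 RPM in haustoria without host, against 3.80, 4.50 and 22.8 RPM in shoot tips. Shoot tip replicate 3 held several times the level of the other shoot tip libraries, and the log2 change of 8.85 ± 1.03 became 10.17 without it. Next came miR12497f, on scaffold 111 at bases 801311 to 801398, with 2676, 3654 and 4401 RPM in haustoria without host, against 66.1, 71.0 and 83.7 RPM in shoot tips. Its shoot tip level was nearly as high as that of miR12490a, and its rise was smaller, 48.6-fold, with a log2 change of 5.60 ± 0.66 (SE, n = 3 each, edgeR adjusted p = 8.9e-06); the direction flipped under TMM (-1.65) and DESeq2 size factors (-1.71).

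The next loci by level in haustoria, IIM-51 and miR12469b, differed from each other in shoot tips. miR12469b had 1909.9, 2035 and 1836 RPM in haustoria without host, against 10.6, 11.03 and 11.5 RPM in shoot tips. Its libraries were close together within each group and did not overlap between groups (log2 change 7.44 ± 0.78, SE, n = 3 each, edgeR adjusted p = 7.5e-06). IIM-51 had 2087, 2686 and 2323 RPM in haustoria without host, against 0.760, 2.25 and 10.1 RPM in shoot tips. Its haustoria level was similar, but its shoot tip libraries were spread over more than 10-fold, with the highest in replicate 3. The log2 change of IIM-51 was 9.07 ± 1.18 with all libraries and 10.58 without shoot tip replicate 3. The order of the loci was partly shared between the groups: 6 of the 10 most abundant loci, and 13 of the 20 most abundant, were the same. IIM-87 and miR12472, both among the 10 most abundant in shoot tips, were not among the first 10 in haustoria.

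**Figure D2:**
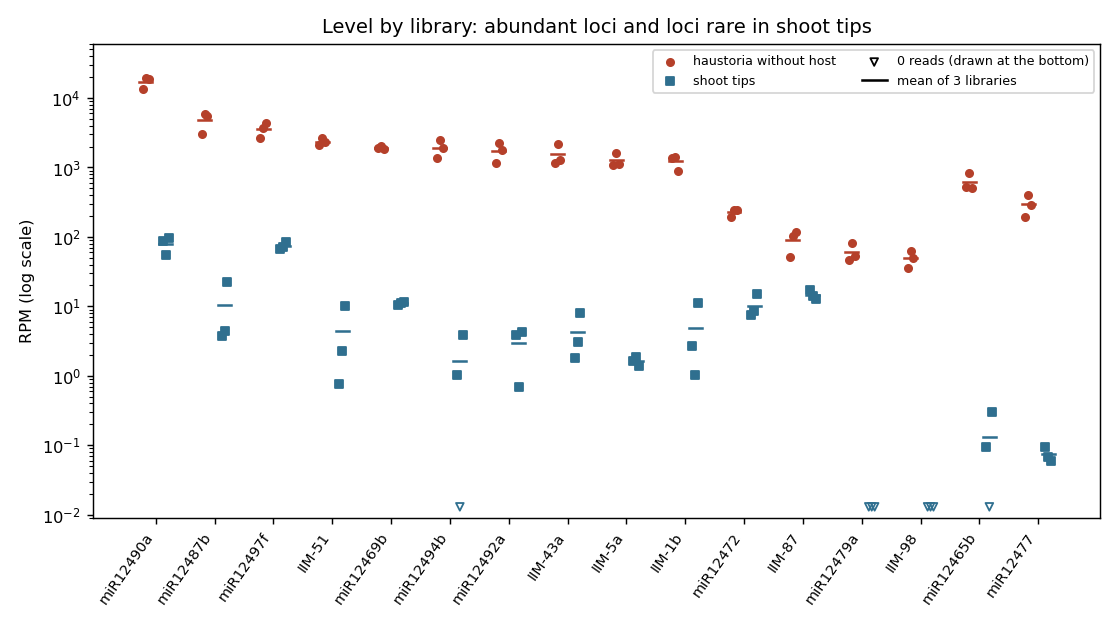
Level of 16 loci in each library (RPM, log scale): haustoria without host as circles left of shoot tips as squares, lines at the mean of 3 libraries, open triangles at the bottom for 0 reads. In all 16 loci the 3 haustoria libraries lie above the 3 shoot tip libraries; the distance is smallest for IIM-87, and miR12479a and IIM-98 have no shoot tip read.

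Reads of 22 loci were found in haustoria without host and in none of the 3 shoot tip libraries, which allows up to 0.0716 RPM in shoot tips, or 3 counts over the group. Against that floor, the haustoria means were at least 8.66-fold to at least 847-fold higher, bounds that cover counting error only. The highest bound belonged to miR12479a, on scaffold 26 at bases 2523691 to 2523780, with 46.8, 81.0 and 54.0 RPM in haustoria without host. IIM-98 followed with 35.6, 62.0 and 49.5 RPM in haustoria without host, at least 685-fold higher. IIM-10a and IIM-10b, on different scaffolds, were at least 587-fold and at least 584-fold higher. All 3 haustoria libraries carried these 4 loci at 30 RPM or above.

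A further 13 loci had 1 to 3 reads over all shoot tips. Among them, miR12477 had 196, 399.9 and 288 RPM in haustoria without host and 1 read in each shoot tip library. Its pooled ratio was 3982 (exact 95% interval 1362 to 19312, counting error only), the highest of these 13. The remaining 121 loci had more than 3 reads over all shoot tips. Of these, miR12465b, on scaffold 79 at bases 376908 to 376996, differed most on means, by 4692-fold. It had 524, 824 and 502 RPM in haustoria without host, against 0.0951, 0 and 0.299 RPM in shoot tips. The shoot tip value rested on 6 reads, 5 of them in replicate 3, and its log2 change was 12.03 ± 1.17, or 13.58 without that library.

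At the other end, 6 tested loci were not called higher, and all of them were rare in both groups. The smallest change was that of miR12497g, on scaffold 111 at bases 802689 to 802777, which had 2.65, 1.84 and 3.28 RPM in haustoria without host, against 0.855, 1.23 and 3.11 RPM in shoot tips. The groups overlapped, with shoot tip replicate 3 above 2 of the 3 haustoria libraries, and the log2 change was 0.56 ± 0.71 (95% interval spanning 0 with an upper end of 2.13, edgeR adjusted p = 0.45). IIM-80 overlapped too, with 0.977, 2.39 and 1.50 RPM in haustoria without host, against 0, 1.63 and 0.838 RPM in shoot tips. For IIM-73c, IIM-42 and IIM-88 the haustoria libraries were all above the shoot tip libraries, by 2.79-fold, 2.70-fold and 3.08-fold on means, with edgeR adjusted p of 0.060, 0.071 and 0.078. IIM-86a had 2.86, 4.51 and 1.31 RPM in haustoria without host, against 1.43, 0 and 0 RPM in shoot tips, its shoot tip reads all lying in 1 library. The log2 change of all 6 was below 0 under TMM and DESeq2 size factors. IIM-4b, which had too few reads to test, had 0 reads in haustoria without host and 3 reads in shoot tips, all in replicate 3.

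Which loci make up the reads at the 156 loci is a separate question from how many such reads there are. Each locus was therefore also taken as a share of the library's reads at the 156 loci, which totalled 639830 to 753418 in haustoria without host and 2975 to 7260 in shoot tips. By that measure edgeR called 32 loci higher in haustoria without host (22.5% of 142) and 33 lower (23.2%). Among the 31 loci that would have passed the filter on shoot tip reads alone, 3 were higher and 12 lower. That subset is set by shoot tip levels and so leans toward lower shares in haustoria without host. In 54 of 156 loci (34.6%) all haustoria shares were above all shoot tip shares, and in 25 (16.0%) all were below. The fitted median log2 change of the share was 0.28, and -0.03 with loci that had no shoot tip read at their bound. Of the 32 higher loci, 8 had no shoot tip read, and the count was 20 among the 115 loci with more than 3 shoot tip reads. Without haustoria replicate 1, 2 or 3 the higher calls numbered 16, 17 or 5 and the lower calls 19, 21 or 16. Calls made under all 6 omissions of a library numbered 5 higher and 16 lower.

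The leading locus held a like share in both groups: 29.9%, 28.0% and 31.7% in haustoria without host, all miR12490a, against 31.2%, 28.5% and 22.1% in shoot tips, where miR12497f led replicate 2. The log2 change in the share of miR12490a itself was 0.24 ± 0.22 (95% interval -0.23 to 0.72, edgeR adjusted p = 0.38). The 5 leading loci of each library held 51.6%, 49.2% and 55.3% in haustoria without host and 67.1%, 64.5% and 52.9% in shoot tips. The groups overlapped, and an exact permutation test gave p = 0.2 (adjusted p = 0.333). Loci with a miR number held 72.4% ± 3.01 in haustoria without host and 74.6% ± 3.00 in shoot tips (SD, n = 3 each; exact permutation p = 0.5).

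**Figure D3:**
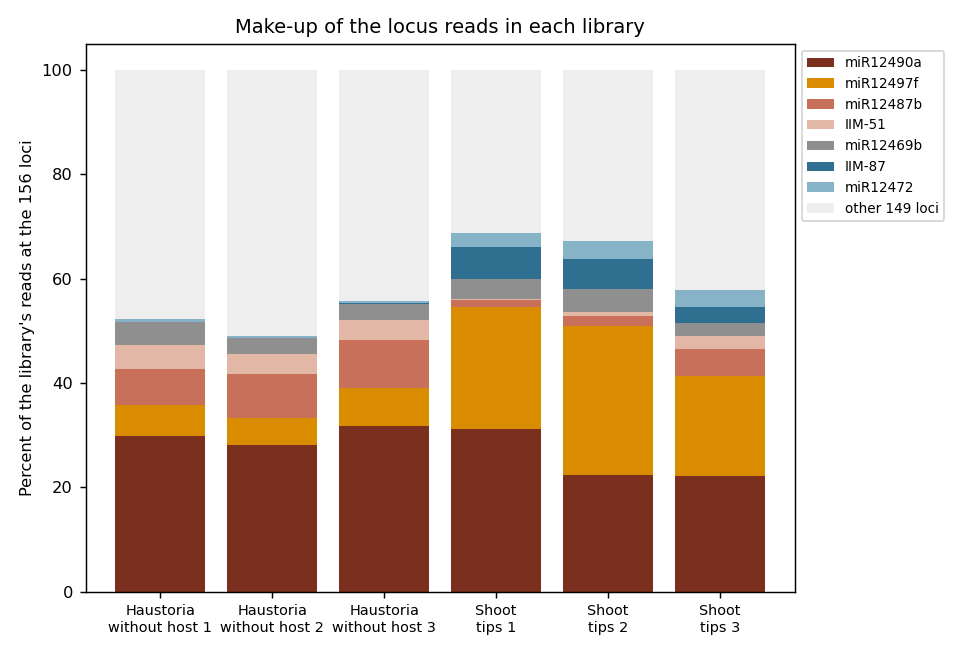
Share of each library's locus reads (percent, stacked bars) held by 7 loci and by the other 149, for haustoria replicates 1 to 3 on the left and shoot tip replicates 1 to 3 on the right. miR12490a takes a similar part of all 6 bars, miR12487b is taller in the haustoria, and miR12497f, IIM-87 and miR12472 are taller in the shoot tips.

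The 5 loci called higher in share under all omissions, singled out after their values were seen, were miR12465b, miR12477, miR12482a, miR12486a and IIM-5a. Of these IIM-5a was the most abundant, with 1088, 1589.8 and 1110.1 RPM in haustoria without host, against 1.62, 1.84 and 1.38 RPM in shoot tips. It made up 2.44%, 2.29% and 1.85% of locus reads in haustoria without host and 0.571%, 0.739% and 0.317% in shoot tips, a log2 change in share of 2.05 ± 0.47 (edgeR adjusted p = 0.0059). Shoot tip libraries gave it 17, 27 and 23 reads and none stood apart. miR12465b made up 1.17%, 1.19% and 0.838% of locus reads in haustoria without host and 0.0336%, 0% and 0.0689% in shoot tips, 4.70 ± 0.64 on the log2 scale (edgeR adjusted p = 0.00031), or 6.14 without shoot tip replicate 3. For miR12482a, with 6 shoot tip reads, the log2 change in share was 3.58 ± 0.67 (edgeR adjusted p = 0.0016), or 5.01 without that library. The share of miR12487b was higher in all haustoria libraries, 6.81%, 8.43% and 9.15% of locus reads in haustoria without host and 1.34%, 1.81% and 5.25% in shoot tips, with a log2 change of 1.52 ± 0.49 (edgeR adjusted p = 0.028). It was 2.36 without shoot tip replicate 3, and the call was lost in 4 of the 6 omissions.

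Lower in share were loci that rose less than the rest. The clearest by abundance was miR12497f, which made up 6.00%, 5.27% and 7.34% of locus reads in haustoria without host and 23.4%, 28.5% and 19.3% in shoot tips. Every haustoria library was below every shoot tip library, and the log2 change in share was -1.93 ± 0.27 (edgeR adjusted p = 0.00031). IIM-87, on scaffold 308 at bases 273099 to 273180, was the most abundant locus in shoot tips after miR12490a and miR12497f, with 51.1, 104 and 118 RPM in haustoria without host, against 17.2, 14.2 and 12.6 RPM in shoot tips. The shoot tip levels differed little, and the rise per mapped reads was 6.22-fold (log2 change 2.64 ± 0.63, SE, n = 3 each, edgeR adjusted p = 0.0016), flipping to -4.72 under TMM and -4.79 under DESeq2 size factors. As a share it made up 0.115%, 0.150% and 0.197% of locus reads in haustoria without host and 6.08%, 5.69% and 2.91% in shoot tips, a log2 change of -4.99 ± 0.54 (edgeR adjusted p = 6.6e-05). miR12472 had 194, 248 and 247 RPM in haustoria without host, against 7.60, 8.45 and 14.8 RPM in shoot tips. Its share fell by 2.98 on the log2 scale (SE 0.43, edgeR adjusted p = 0.00031), and its 22.3-fold rise per mapped reads flipped to -2.71 under TMM and -2.73 under DESeq2 size factors. All 3 loci of the IIM-23 family were lower in share, beside 23.2% of all tested loci. Their log2 changes were -4.88, -3.60 and -5.38 for IIM-23a, IIM-23b and IIM-23c. The change of IIM-23a was -4.24 with shoot tip replicate 2 left out, that of IIM-23b was -3.00 with shoot tip replicate 1 left out, and the call for IIM-23b was lost without haustoria replicate 3.

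Calls in share differed with the level of the locus. Among tested loci with a mean of 100 RPM or more in haustoria without host, 21 of 58 were called higher in share and 4 lower. Between 10 and 100 RPM the counts were 11 higher and 13 lower of 58. Under 10 RPM they were 0 higher and 16 lower of 26. The grouping uses haustoria levels and so leans toward this order; it is given as a description.

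**Figure D4:**
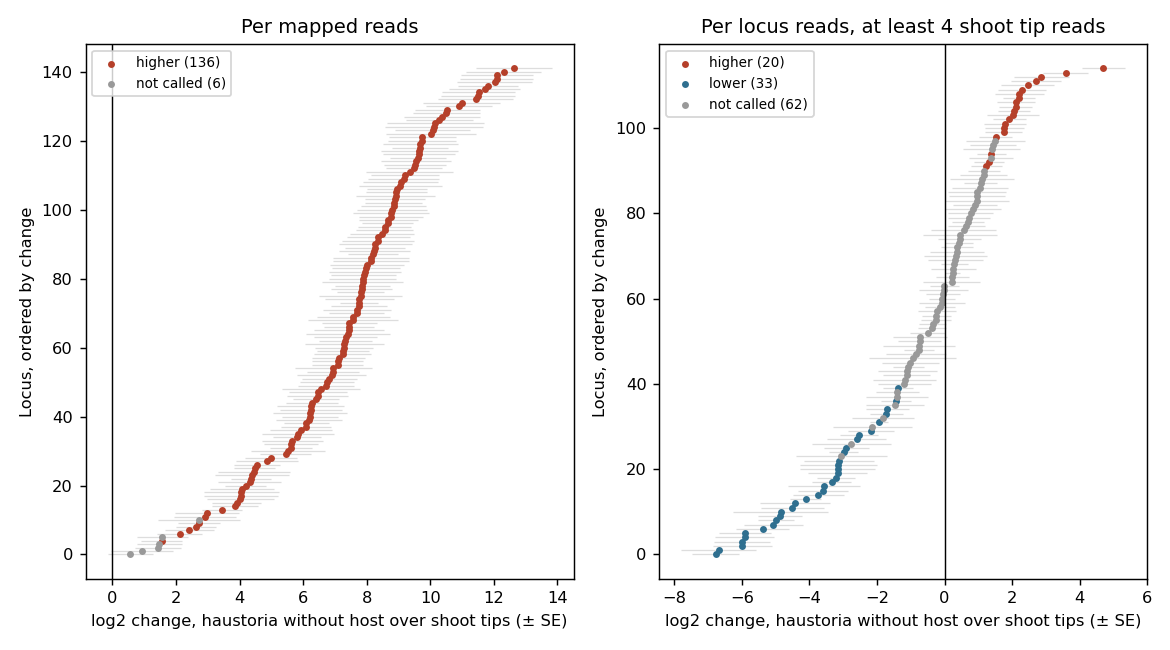
Log2 change of each locus, haustoria without host over shoot tips, with SE, ordered by size: 142 tested loci per mapped reads on the left, and on the right the 115 of them with more than 3 shoot tip reads as a share of locus reads. Per mapped reads every point is above 0 and 6 are not called; in shares 20 are called higher, 33 lower and 62 not. Under scaling on the loci 54 (TMM) or 53 (DESeq2 size factors) of the called points on the left lie below 0.

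The families known from earlier work to act on host messenger RNAs, or closely tied to those that do, had 15 loci in the table, in 5 of the 6 families listed. Per mapped reads, 14 of the 15 were called higher, beside 95.8% of all tested loci, with a median log2 change of 6.76 beside 7.69. The list's median turned to -0.46 under TMM and -0.49 under DESeq2 size factors. In shares 4 of the 15 were higher, 6 lower and 5 not called, beside 22.5% higher and 23.2% lower of all tested loci. The list's median was -0.75 beside 0.28 for all tested loci. The latter became -0.03 with loci that had no shoot tip read at their bound. Of the 15, 11 had a mean of 1 RPM or more in shoot tips. Among all 43 tested loci at that level, 8 were higher and 14 lower in the same fit, with a median of -0.13. The list held 12.5%, 13.1% and 15.0% of locus reads in haustoria without host, against 30.5%, 35.7% and 26.6% in shoot tips. The haustoria libraries were all lower, and miR12497f alone accounted for 23.4%, 28.5% and 19.3% in the shoot tips. The list was drawn from work on haustoria and its choice knew earlier results of these data.

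Within the list the families differed. Both loci of miR12495 were higher in share, by 2.29 ± 0.71 and 2.21 ± 0.72 on the log2 scale (edgeR adjusted p = 0.028 and 0.029). miR12495a had 124, 321 and 306 RPM in haustoria without host, against 0.190, 0 and 0.658 RPM in shoot tips. Shoot tip replicate 2 had no read of either copy, and without shoot tip replicate 3 the share change of miR12495a was 3.78. miR12494b had 1351, 2486 and 1912 RPM in haustoria without host, against 1.05, 0 and 3.89 RPM in shoot tips. Its share rose by 2.87 ± 0.82 (edgeR adjusted p = 0.021), or 4.26 without shoot tip replicate 3. Those calls for miR12495 and miR12494 were each lost without haustoria replicate 1 and without replicate 3. For miR12480b, a locus near 1000 RPM with 689, 1117 and 979 RPM in haustoria without host, against 5.70, 2.59 and 7.60 RPM in shoot tips, the log2 change in share was -0.01 ± 0.42 (edgeR adjusted p = 0.99). Outside miR12497, the list's locus called lower in share was miR12480a, with 51.1, 62.2 and 59.8 RPM in haustoria without host, against 2.00, 1.63 and 0.359 RPM in shoot tips. Its log2 change in share was -2.17 ± 0.69 (edgeR adjusted p = 0.028), a call made in 1 of the 6 omissions, that of shoot tip replicate 3. The share call of miR12494a, 3.58 ± 1.17 (edgeR adjusted p = 0.028), rested on 1 shoot tip read, in replicate 3, and was lost without any single haustoria library or without shoot tip replicate 1. miR12496 had 100.3, 118 and 129 RPM in haustoria without host, against 0.380, 0.885 and 1.50 RPM in shoot tips. Its libraries did not overlap per mapped reads, while its share was not called (edgeR adjusted p = 0.46). Without any single haustoria library the list had 0 or 1 locus higher in share, and 1 without shoot tip replicate 1.

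The miR12497 family, the largest with 7 loci, lay at the low end of the changes. Per mapped reads 6 of its 7 loci were called higher, beside 95.8% of all tested loci, with a median log2 change of 4.35 beside 7.69; all 7 were below 0 under TMM and DESeq2 size factors. In shares 5 were lower and 0 higher, beside 23.2% lower and 22.5% higher of all tested loci. The 4 loci miR12497a to miR12497d stood within 6871 bp on scaffold 13b. The first 3 of these lay between 18.6 and 41.0 RPM in haustoria without host and between 1.09 and 3.23 RPM in shoot tips. Their log2 changes in share were -3.22, -3.35 and -4.11 (edgeR adjusted p = 0.00096, 0.00096 and 6.6e-05). miR12497e had 156, 459 and 414 RPM in haustoria without host, against 1.62, 2.66 and 5.15 RPM in shoot tips, and its share was not called (edgeR adjusted p = 0.20). The pair miR12497f and miR12497g lay within 1467 bp on scaffold 111 and differed by 1381-fold in mean level in haustoria without host. Their changes per mapped reads were 5.60 ± 0.66 and 0.56 ± 0.71 on the log2 scale.

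**Figure D5:**
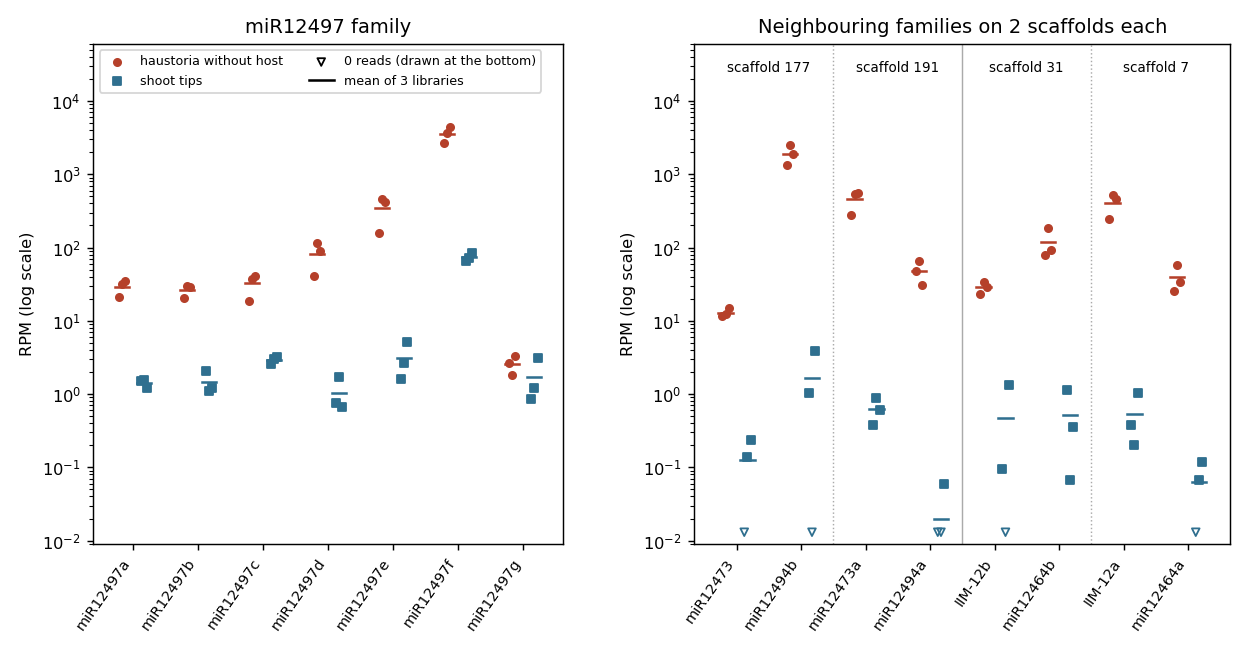
Level in each library (RPM, log scale) of the 7 loci of the miR12497 family on the left, and of 2 pairs of neighbouring families, each pair on 2 scaffolds, on the right; haustoria without host as circles left of shoot tips as squares, lines at the mean of 3 libraries, open triangles for 0 reads. The groups overlap at miR12497g and at no other locus drawn, and the higher member of each neighbouring pair changes from one scaffold to the other.

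Members of a family often differed widely. Of 39 families with 2 or more loci, 13 had over 90% of their mean haustoria level in 1 locus, and 16 had a highest locus more than 10 times the lowest. miR12490a and miR12490b, on the same scaffold, differed by 1843-fold. miR12490b, taken up here for its partner and after its values were seen, had 4.60, 10.2 and 13.3 RPM in haustoria without host, against 0.665, 0.885 and 0.299 RPM in shoot tips. Its change of 3.91 ± 0.77 per mapped reads was smaller than the 7.75 ± 0.59 of miR12490a, and its share fell by 3.73 (edgeR adjusted p = 0.0032), a call lost without any single haustoria library; without shoot tip replicate 2 it fell by 3.10. The change of miR12490b per mapped reads flipped to -3.43 under TMM and -3.52 under DESeq2 size factors. IIM-73a had 78.7, 149.7 and 152 RPM in haustoria without host, against 0.855, 2.04 and 2.63 RPM in shoot tips, while IIM-73b and IIM-73c, both on scaffold 502, stayed under 5 RPM in all libraries. Their log2 changes were 6.08 ± 0.79, 1.55 ± 0.65 and 1.48 ± 0.70 per mapped reads, all below 0 under TMM and DESeq2 size factors, and that of IIM-73b was called in 1 of the 6 omissions. The 2 miR12479 loci differed in shoot tips: miR12479a had no read there, while miR12479b had 30.3, 74.9 and 93.6 RPM in haustoria without host, against 3.04, 0.749 and 2.51 RPM in shoot tips.

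Other copies were nearly equal. Among 56 pairs of family members with more than 50 reads in each haustoria library, 8 stayed within 1.25-fold in all 3. IIM-76a and IIM-76b, 112301 bp apart, had ratios of 1.01, 0.986 and 1.02. For IIM-79a and IIM-79b they were 0.987, 1.04 and 1.03, and for miR12495a and miR12495b 1.04, 1.07 and 1.02. How reads matching both copies were assigned is not known, and its part in these ratios was not tested.

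Loci of different families also lay side by side. With a gap of at most 20 kb, a distance set after the table was seen, 64 loci formed 27 groups, 11 of them of 1 family. Picked out after the values were seen, 3 pairs of families were neighbours on 2 scaffolds each. On scaffold 177, miR12473 had 11.5, 12.3 and 15.0 RPM and miR12494b had 1351, 2486 and 1912 RPM in haustoria without host. On scaffold 191 the order was opposite, miR12473a having 278, 535 and 556 RPM and miR12494a 47.6, 65.4 and 30.9 RPM in haustoria without host. The order also turned round for IIM-12 and miR12464. On scaffold 31, IIM-12b had 23.5, 33.7 and 29.0 RPM and miR12464b 78.3, 184 and 93.3 RPM in haustoria without host. On scaffold 7, IIM-12a had 248, 521 and 453 RPM and miR12464a 25.9, 57.5 and 33.7 RPM in haustoria without host. The third pair was IIM-10 with miR12436. On scaffold 9, IIM-10b and miR12436c had no shoot tip read, and neither had IIM-10a and miR12436d on scaffold 7. Also on scaffold 7, miR12436a had 252, 352 and 256 RPM in haustoria without host, against 1.62, 0.817 and 3.71 RPM in shoot tips. The 4 miR12436 loci were all called higher per mapped reads and none was called in share.

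Taken over all loci, libraries differed less within haustoria without host than within shoot tips. The median coefficient of variation over 3 libraries was 31.9% across 155 loci in haustoria without host and 92.5% across 134 loci in shoot tips. At like levels the groups were closer. Between 10 and 100 RPM it was 29.3% (58 loci) in haustoria without host and 21.3% (6 loci) in shoot tips. Between 1 and 10 RPM it was 43.0% (34 loci) and 57.8% (37 loci), and under 1 RPM 88.8% (5 loci) and 106% (91 loci). Under 10 reads stood at 8, 6 and 10 loci in the haustoria libraries and at 111, 98 and 74 loci in the shoot tip libraries, and the part of read number in the spread was not tested. Across the 156 loci, Spearman's rho between libraries was 0.977 to 0.987 within haustoria without host and 0.641 to 0.673 within shoot tips; the loci are not independent replicates. Between groups it was 0.418 to 0.697, the 3 highest values being those of shoot tip replicate 3. That library had the most locus reads of its group and the highest level of the 3 for 72 of 121 loci. Haustoria replicate 2 was highest of its group for 107 of 155. Leaving out shoot tip replicate 3 moved the change of 63 called loci by more than 1.5 times per mapped reads, more than any other omission, and its part in single changes is given beside them above.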

How the data were processed

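Small RNA libraries were made, per the labels' protocols, by random-splint ligation from total RNA and size-selected for inserts of 12 to 52 nt. Bowtie and cutadapt 3.5 are named by the submitters' processing notes, with no further settings. The table deposited by the authors gave a read count per locus and library, the mapped reads, and RPM, which equalled the deposited count scaled to mapped reads in all 1404 rows (tolerance 1e-06).

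Counts were tested with edgeR 4.0.16 in R 4.3.3 (robust quasi-likelihood F test, two-sided, 6 libraries, group only) with mapped reads as library sizes, and again with total locus reads as library sizes for shares. The default expression filter (minimum count 10, total 15) kept 142 loci and left out 14. The threshold was a Benjamini-Hochberg adjusted p under 0.05 over all loci tested. Composition was compared with exact permutation tests (SciPy 1.17.1, Python 3.11.15). Folds against 0 reads used a floor of 3 counts over the shoot tips. Pooled ratios carry exact 95% intervals. PCR copies were not marked, so these bounds and intervals hold counting error alone.

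Rules for naming loci covered the 10 highest in each group, the 10 largest and 10 smallest changes, and all tested loci not called. They also covered the 8 largest changes of share in each direction, the host messenger RNA list, and families of 4 or more loci. Not every locus under these rules is named in the text, and changes for the 8 largest share increases are not given. Loci named outside the rules were chosen after their values were seen, whether or not marked so. The largest changes had to be past the threshold, in libraries that do not overlap, with a mean of 10 RPM or more where the locus was higher. The loci, lists, tests and rules were chosen with earlier results of these data known.

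Alternatives were TMM, DESeq2 1.42.0 size factors and test, limma-voom (limma 3.58.1), no filter, 10 CPM in 3 libraries, a fold of 2, copies summed, the total without its leading locus, the replicate block, and each library left out. Added after seeing the data were loci at 1 RPM or more in shoot tips, and leaving out both libraries with the most locus reads. The edgeR test was also run on simulated counts with both groups near haustoria levels. Such counts do not cover loci with few shoot tip reads.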

Additional observations from a re-analysis of the deposited data

How the results depend on the processing

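TMM left 36 loci higher and 30 lower with a median log2 change of 0.56, and DESeq2 size factors 38 and 30 with 0.54; on the host messenger RNA list both left 4 higher and 6 lower, with medians of -0.46 and -0.49. Of the loci named by rule, those whose log2 change turned below 0, with the value under TMM first and under DESeq2 size factors second, were IIM-23a (-4.58 and -4.67), IIM-23b (-3.37 and -3.40), IIM-23c (-5.13 and -5.19), IIM-42 (-5.70 and -5.75), IIM-73b (-5.61 and -5.65), IIM-73c (-5.67 and -5.74), IIM-80 (-6.34 and -6.43), IIM-86a (-4.71 and -4.77), IIM-87 (-4.72 and -4.79), IIM-88 (-5.57 and -5.63), IIM-89 (-4.83 and -4.89), miR12472 (-2.71 and -2.73), miR12480a (-1.90 and -1.98), miR12480c (-0.079 and -0.0921), miR12486b (-2.67 and -2.70), miR12496 (-0.20 and -0.21), miR12497a (-2.94 and -3.00), miR12497b (-3.10 and -3.15), miR12497c (-3.83 and -3.88), miR12497d (-1.08 and -1.18), miR12497e (-0.46 and -0.49), miR12497f (-1.65 and -1.71) and miR12497g (-6.49 and -6.48). Both scalings assume that most loci keep their level, by their construction.

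Shares moved with the setting as follows. With loci kept only at a mean of 1 RPM or more in shoot tips, an alternative chosen after seeing the data, 9 were higher and 15 lower with a median of -0.13, and the list had 1 higher and a median of -1.93; fewer loci were tested. A minimum of 10 CPM in 3 libraries left 14 lower, and copies of a family summed left 20 higher and 15 lower, both with fewer features. Against a fold of 2, 18 were higher, and 1 on the list. Leaving out 1 library at a time gave 5 to 39 higher, 16 to 34 lower and medians of 0.22 to 0.92, and on the list 0 to 4 higher, 5 to 7 lower and medians of -0.99 to -0.53. The cause was not tested.

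Per mapped reads, leaving out 1 library gave 133 to 137 higher, 0 to 0 lower and medians of 7.42 to 8.29, and on the list 14 to 14 higher, 0 to 0 lower and medians of 6.45 to 7.31. Calls were lost for IIM-91 without haustoria replicate 1, for IIM-23c without haustoria replicate 2, for IIM-31 without haustoria replicate 1 or 2, and for IIM-73b in all omissions but that of shoot tip replicate 1, so that 132 of the 136 were made under all 6. The difference in locus reads as a percent of mapped reads was 5.20 to 6.43 points. Differences in composition were 0.0337 to 4.57 points for the leading locus, -13.7 to -6.67 for the leading 5, -3.79 to -0.753 for loci with a miR number and -56.2 to -42.2 for the number of loci without a read.

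Whether the replicate numbers pair the libraries is not given in the labels. Deviations of same-numbered libraries correlated at 0.217, -0.00438 and 0.197 across 150 loci. Those of other-numbered libraries correlated at -0.286 to 0.0932, and these values do not settle the question. With the replicate block, 135 loci were higher per mapped reads, and in shares 15 were higher and 18 lower, with 1 of the list higher. Few locus reads limit the shoot tips: 35 of 156 loci had 3 or fewer there, at mapped reads of 10520587 to 16706210 per library. The half-widths of the 95% intervals had a median of 2.17 on the log2 scale per mapped reads.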
